A study of Saccharomyces cerevisiae with 8 samples.

Results

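Transcripts of 10 budding yeast genes that move iron inside the cell, build it into cofactors or regulate its supply were followed in 8 arrays. They were chosen by symbol from the array annotation (AFT1, AFT2, FET4, SMF3, FET5, FTH1, MRS4, ISU1, ISU2 and HMX1), 10 of the 5656 genes with a probe set of their own, and each was read by 1 probe set. The arrays compared 4 samples of haploid Saccharomyces cerevisiae that, per the labels, carried the point mutant V81G of human EIF5A1 with 4 that carried wild-type human EIF5A1. Sample titles number them as biological replicates of a strain, while the design text speaks of 4 isogenic strains per group. In both groups the human gene sat on a plasmid, yeast's own eIF5A genes, hyp2 and anb1, were described as disrupted, the background was W303, and cultures grew at 25 °C, a permissive temperature for the mutant, to early logarithmic phase. The labels describe the mutant as temperature sensitive and the growth of the other group as normal, and they give no iron treatment.

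Yeast senses iron through the related transcription factors Aft1 and Aft2, which enter the nucleus when iron is scarce and switch on uptake, release of vacuolar iron and recycling of heme iron. The monothiol glutaredoxins Grx3 and Grx4, with Bol2 (also called Fra2), hold Aft1 inactive when mitochondria deliver iron-sulfur clusters. The vacuole is the main iron store, and mitochondria use iron to make heme and iron-sulfur clusters. Because an array reads bulk RNA, fewer cells that express a gene and less RNA per cell cannot be told apart.

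Values are log2 of the deposited intensities, and differences are V81G minus wild type with the standard error (SE) of limma's model. Calls needed an adjusted p under 0.05 after Benjamini-Hochberg adjustment over all 9275 probe sets tested. Precision is limited by the number of arrays, 4 per group. Log2 values correlated across probe sets at 0.953 to 0.991 within V81G, at 0.954 to 0.984 within wild type and at 0.921 to 0.953 between the groups. The run sheets put replicates 1 and 2 of each group on hybridization day 1 and the other replicates on day 2. On day 1 both V81G arrays ran on fluidics station 2 and both wild-type arrays on station 1. Station and group therefore cannot be told apart in any difference of day 1 alone. HYP2, described as disrupted, read 15.42 ± 0.01 (SD, n = 4) in the arrays labelled wild type, at the table's highest value, 15.43, so that this level may be capped, and 12.02 ± 0.23 (n = 4) in those labelled V81G, and ANB1 read 14.04 ± 0.13 and 14.18 ± 0.20. Taken as they stand, both levels go against the description, so groups are called by their labels. Whether the probes read RNA of a disrupted gene, or RNA of the other of these related genes, was not tested. The named parent strain is W303a. Of 6 a-cell markers STE2, BAR1 and AGA2 had means over the 8 arrays below 9.03, the level under which probe sets were treated as dim. The means of STE6, MFA1 and MFA2 were above it. MFA1 (9.90 to 10.66) and MFA2 (10.68 to 11.80) lay above 9.03 in every array, while STE6 lay on both sides of it in wild type (8.81 to 9.32). STE2 lay above it in the V81G arrays (9.12 to 9.42), and STE2 and STE6 rose there by 1.14 ± 0.13 and 0.61 ± 0.17 (limma adjusted p = 4.1e-04 and 0.0362). The alpha-cell markers SAG1 (11.40 ± 0.16 in wild type, 13.17 ± 0.11 in V81G), STE3 and MF(ALPHA)1 lay above 9.03 in every array, and the fourth, MF(ALPHA)2, lay on both sides of it, from 8.44 to 9.85.

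Of the 10 genes, AFT1, AFT2 and FET4 rose in the arrays labelled V81G, none fell and 7 did not pass the test. Among all genes 9.21% were called higher and 12.3% lower. The median difference of the 10 was 0.32, against -0.08 for all 5656 genes. It was 0.56 on day 1 and 0.15 on day 2. In single arrays, taken relative to each gene's wild-type mean, the median of the 10 was 0.58 and 0.37 in V81G 1 and 2, and 0.12 in each of V81G 3 and 4. In the wild-type arrays it lay between -0.03 and 0.09.

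With the hybridization day as a block, 6 of the 10 were called: ISU1 joined the genes that rose, and the vacuolar genes FET5 and FTH1 fell, against 12.5% of all genes higher and 18.3% lower in the same fit. With the replicate number as a block 5 were called, FTH1 being the one left out. Every V81G array lay above every wild-type array for AFT1, AFT2 and FET4 (11.5% of all genes), and below every one for FTH1 (16.7% of all genes). A test of whether the group difference changed between days called none of the 10 and 1.86% of all genes. The median difference of the 259 genes of chromosome VIII was 0.46, and none of the 10 lies there.

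**Figure D1:**
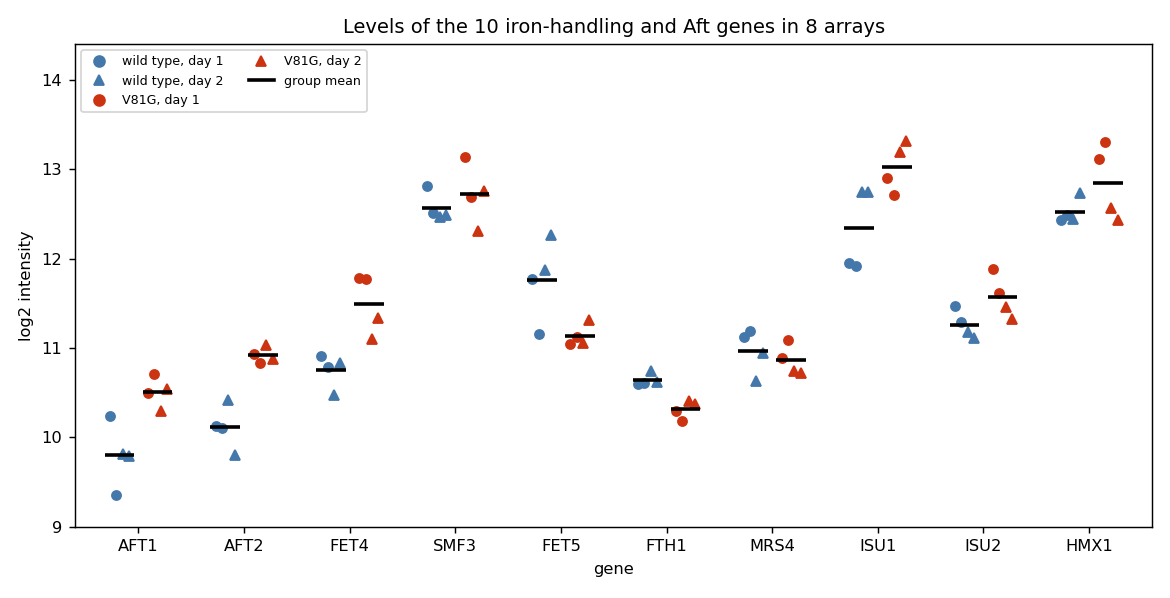
Log2 intensity (vertical axis) of each of the 10 genes (horizontal axis) in the 4 wild-type and 4 V81G arrays, with the hybridization day as the symbol and the group mean as a bar. AFT1, AFT2 and FET4 show all V81G arrays above all wild-type arrays, and FTH1 shows them all below.

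AFT1 (YGL071W, chromosome VII) encodes the main activator of iron uptake genes. Its log2 level was 10.50, 10.71, 10.30 and 10.54 in V81G 1 to 4 and 10.24, 9.36, 9.81 and 9.79 in wild type 1 to 4. The groups did not overlap, although V81G 3 and wild type 1 lay close to each other. AFT1 rose by 0.71 ± 0.19 (SE), or 1.64-fold, with a limma adjusted p of 0.0266. The difference was 0.81 on day 1 and 0.62 on day 2. The call was lost without any 1 of V81G 1, V81G 2, V81G 4, wild type 3 or wild type 4, with adjusted p-values up to 0.0674.

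AFT2 (YPL202C, chromosome XVI) encodes its paralog, which shares many targets with Aft1 and has been linked most to genes of intracellular iron use. Its level was 10.93, 10.83, 11.03 and 10.88 in V81G 1 to 4, a narrow range, and 10.13, 10.10, 10.42 and 9.80 in wild type 1 to 4. The lowest V81G array stood clear of the highest wild-type array. AFT2 rose by 0.80 ± 0.15, or 1.75-fold (limma adjusted p = 0.0049), by 0.77 on day 1 and by 0.84 on day 2. It remained called whichever array was left out, with adjusted p-values of at most 0.0178.

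FET4 (YMR319C, chromosome XIII) encodes the low-affinity transporter of iron, copper and zinc in the plasma membrane, a gene under the control of Aft1, the zinc regulator Zap1 and the hypoxic repressor Rox1. It read 11.78, 11.77, 11.10 and 11.33 in V81G 1 to 4 and 10.91, 10.79, 10.47 and 10.83 in wild type 1 to 4. All V81G arrays were higher, those of day 1 the most. FET4 rose by 0.74 ± 0.18, or 1.67-fold (limma adjusted p = 0.0204), with 0.92 on day 1 and 0.56 on day 2. Leaving out V81G 1, V81G 2 or wild type 3 ended the call, with adjusted p-values up to 0.0581.

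Of the 3 vacuolar genes none passed the test without a block. FET5 (YFL041W, chromosome VI) encodes a multicopper oxidase that works with the permease Fth1 to release stored iron from the vacuole. It read 11.04, 11.12, 11.06 and 11.31 in V81G 1 to 4, and 11.77, 11.16, 11.87 and 12.26 in wild type 1 to 4. The wild-type arrays were the more scattered, and wild type 2 sat among the V81G values. The difference was -0.63 ± 0.21 (95% confidence interval -1.11 to -0.16, limma adjusted p = 0.0682). Day 1 gave -0.39 and day 2 gave -0.88. As blocks, the day (adjusted p = 0.0265) and the replicate number (adjusted p = 0.0406) each brought it past the threshold. Without wild type 2 it was -0.84, with an adjusted p of 0.0080.

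FTH1 (YBR207W, chromosome II), the permease partner, read 10.29, 10.18, 10.41 and 10.37 in V81G 1 to 4 and 10.60, 10.61, 10.74 and 10.62 in wild type 1 to 4. The groups were tight and did not overlap, and the difference was small, -0.33 ± 0.11 (interval -0.58 to -0.08, limma adjusted p = 0.0768). Blocking by day brought it past the threshold (adjusted p = 0.0391), and blocking by replicate number did not (adjusted p = 0.0853). SMF3 (YLR034C, chromosome XII) encodes a divalent metal transporter of the vacuolar membrane, also thought to release stored iron. It read 13.14, 12.69, 12.31 and 12.76 in V81G 1 to 4 and 12.81, 12.51, 12.47 and 12.49 in wild type 1 to 4. The groups overlapped, with V81G 1 above and V81G 3 below all wild-type arrays, and gave a difference of 0.15 ± 0.18 (interval -0.25 to 0.55, limma adjusted p = 0.637).

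ISU1 (YPL135W, chromosome XVI) encodes the main scaffold on which iron-sulfur clusters are built. It read 12.90, 12.71, 13.19 and 13.31 in V81G 1 to 4 and 11.95, 11.92, 12.74 and 12.74 in wild type 1 to 4. In each group the arrays of day 2 were above those of day 1, and within each day both V81G arrays were above both wild-type arrays. The difference of 0.69 ± 0.23 (interval 0.17 to 1.22) did not pass without a block (limma adjusted p = 0.0727). Blocking by day lowered the SE to 0.12, and the difference passed (adjusted p = 0.0024), as it did when blocked by replicate number (adjusted p = 0.0119). Day 1 gave 0.87 and day 2 gave 0.52.

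ISU2 (YOR226C, chromosome XV), the paralogous scaffold, read 11.88, 11.62, 11.46 and 11.32 in V81G 1 to 4 and 11.47, 11.29, 11.18 and 11.11 in wild type 1 to 4. Its day pattern was the reverse of that of ISU1, with day 1 above day 2 in each group. The difference was 0.30 ± 0.15 (interval -0.04 to 0.65, limma adjusted p = 0.220), nor did it pass when blocked by day (adjusted p = 0.0793). Whether the probes of these closely related genes also read the other transcript was not tested. MRS4 (YKR052C, chromosome XI) encodes a carrier that brings iron across the inner mitochondrial membrane. It read 10.89, 11.09, 10.74 and 10.72 in V81G 1 to 4 and 11.12, 11.19, 10.63 and 10.94 in wild type 1 to 4. The groups overlapped, and the difference was -0.11 ± 0.16 (interval -0.46 to 0.24, limma adjusted p = 0.707).

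HMX1 (YLR205C, chromosome XII) encodes heme oxygenase, which frees iron from heme. It read 13.11, 13.30, 12.56 and 12.43 in V81G 1 to 4 and 12.43, 12.49, 12.44 and 12.73 in wild type 1 to 4. Only the V81G arrays of day 1 stood above the wild-type range. The difference over all arrays was 0.33 ± 0.20 (interval -0.12 to 0.78, limma adjusted p = 0.323), with 0.75 on day 1 and -0.08 on day 2. The change of -0.83 ± 0.22 between the days was the largest among the 10 genes and did not pass (limma adjusted p = 0.126). As for every gene, fluidics station and group cannot be told apart on day 1. With day and station as terms the difference was 0.21 (adjusted p = 0.171).

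**Figure D2:**
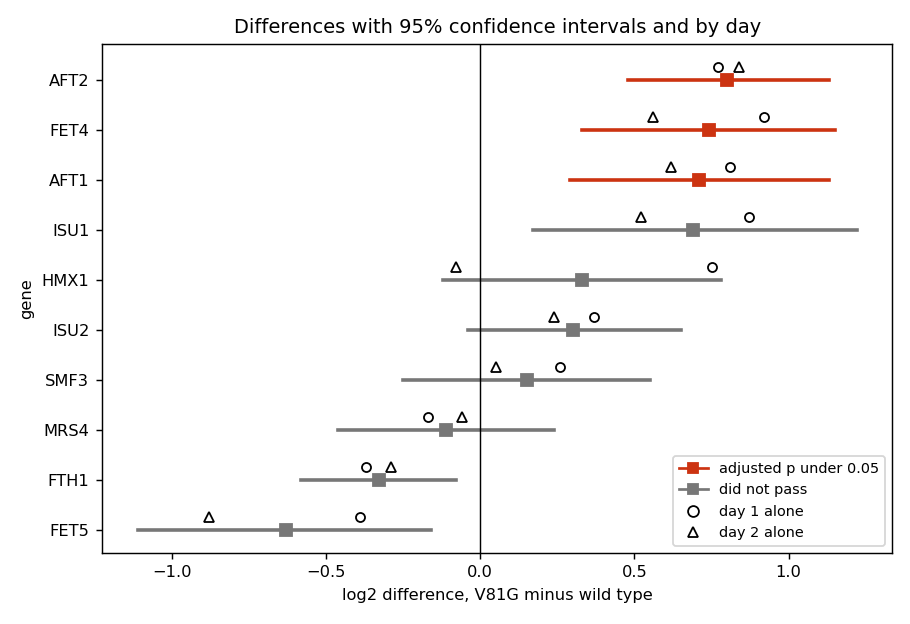
Log2 difference of V81G minus wild type (horizontal axis) for each gene (vertical axis), with its 95% confidence interval and, as open symbols, the difference on each hybridization day alone. AFT2, FET4 and AFT1 passed the test, and the days lie on both sides of 0 for HMX1, at 0.75 and -0.08.

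Related genes were compared within each array, which cancels any shift of a whole array. For 6 pairs the log2 value of the second gene was subtracted from that of the first, and the groups were compared with a two-sided exact permutation test. With 4 arrays against 4 its smallest p is 0.0286, and p-values were adjusted over the 6 pairs. AFT1 minus AFT2 showed no change beyond the spread of the arrays. It was -0.41 ± 0.25 (SD, n = 4) in V81G and -0.31 ± 0.42 (n = 4) in wild type, a change of -0.09 ± 0.25 (SE) (exact permutation p = 0.743, adjusted p = 0.743). ISU1 minus ISU2 changed by 0.39 ± 0.39 (exact permutation p = 0.371, adjusted p = 0.446). Its arrays of day 2 exceeded those of day 1 in each group, and within each day both V81G arrays were above both wild-type arrays. By replicate number the differences were 0.54, 0.47, 0.19 and 0.37. An exact sign-flip test over these 4 pairs gave p = 0.125, the smallest it allows.

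FET5 and FTH1 were set against their relatives of the plasma membrane. FET3, the oxidase of high-affinity uptake and a relative of FET5, rose by 1.15 ± 0.19 (limma adjusted p = 0.0031). FET5 minus FET3 was -1.86, -1.93, -1.65 and -1.59 in V81G 1 to 4 and -0.31, -0.90, 0.57 and 0.74 in wild type 1 to 4. All V81G arrays were lower, and the change was -1.79 ± 0.39 (exact permutation p = 0.0286, the smallest possible, adjusted p = 0.0571). FTR1, the permease partner of Fet3, rose by 0.51 ± 0.14 (limma adjusted p = 0.0312). FTH1 minus FTR1 was -0.50, -0.60, -0.64 and -0.54 in V81G 1 to 4 and 0.27, 0.49, 0.29 and 0.02 in wild type 1 to 4. All V81G arrays were again lower, with a change of -0.84 ± 0.10 (exact permutation p = 0.0286, adjusted p = 0.0571).

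SMF1, a manganese transporter gene of the same family as SMF3, fell by 0.56 ± 0.17 (limma adjusted p = 0.0445). SMF3 minus SMF1 was 2.51, 2.20, 2.29 and 2.65 in V81G 1 to 4 and 1.87, 1.66, 1.81 and 1.47 in wild type 1 to 4. The V81G arrays were all higher, with a change of 0.71 ± 0.14 (exact permutation p = 0.0286, adjusted p = 0.0571). MRS3, the other mitochondrial iron carrier, differed by -0.72 ± 0.29 without passing (limma adjusted p = 0.128), by -1.14 on day 1 and -0.29 on day 2. It passed when blocked by day (adjusted p = 0.0222) or by replicate number (adjusted p = 0.0465). MRS4 minus MRS3 changed by 0.61 ± 0.44, and its groups overlapped (exact permutation p = 0.286, adjusted p = 0.429). By replicate number the differences were 0.76, 1.20, 0.28 and 0.19, with the same sign-flip p of 0.125, and within each day both V81G arrays were again the higher. None of the 6 pairs passed after adjustment in the unpaired test. FET5 minus FET3, FTH1 minus FTR1 and SMF3 minus SMF1 each had the smallest p that this permutation test allows, 0.0286. With the other pairs as they were, adjustment takes that p to 0.0571 whatever the size of the change, so these pairs could not pass.

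**Figure D3:**
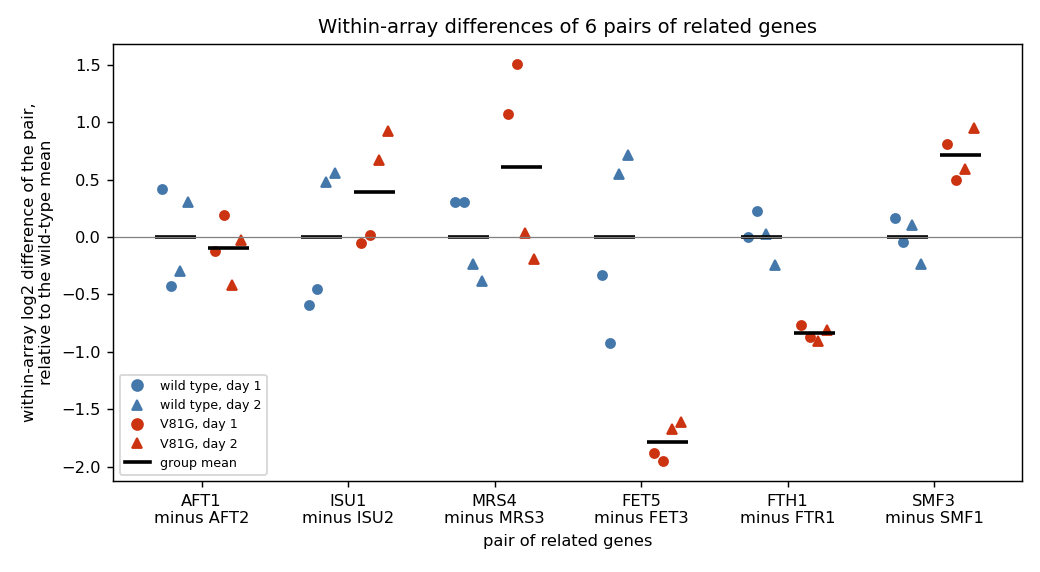
Within-array log2 difference of each pair (horizontal axis), shown relative to its wild-type mean (vertical axis), in 4 wild-type and 4 V81G arrays with group means as bars. FET5 minus FET3 and FTH1 minus FTR1 lie below every wild-type array, with mean changes of -1.79 and -0.84, and SMF3 minus SMF1 lies above, with 0.71.

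Other genes were taken as 7 lists, each named for what most of its genes do. The counts of the lists stand beside 9.21% of all genes called higher, 12.3% called lower and 58.8% with a negative difference. Of 17 genes of reductive and siderophore uptake 11 rose and 1 fell, with a median difference of 0.82. The siderophore transporter genes ARN2 (2.81 ± 0.14) and ARN1 (2.05 ± 0.12), both on chromosome VIII, and the ferric reductase gene FRE2 (1.77 ± 0.13) rose most, with limma adjusted p-values of at most 4.9e-05. ATX1, a copper chaperone gene, fell by 0.41 ± 0.12 (limma adjusted p = 0.0467), a call lost when blocked by replicate number (adjusted p = 0.0706). The median of these 17 was 0.83 on day 1 and 0.88 on day 2, beside 0.56 and 0.15 for the 10 genes described above, and this contrast was not tested.

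A list of 11 genes, mostly of low-iron RNA decay and of vacuolar or other metal transport, also held VHT1, AKR1, TYW1 and YAP5, which have other functions. Of the 11 genes 1 rose, YAP5, and 2 fell, shares near those of all genes, with a median of 0.29. Blocked by day, 3 rose and 4 fell, beside 12.5% of all genes higher and 18.3% lower in that fit. CCC1, the importer that loads iron into the vacuole, fell by 0.66 ± 0.12 (limma adjusted p = 0.0048). Its level was 10.20, 10.17, 10.18 and 10.19 in V81G 1 to 4 and 10.86, 10.67, 10.80 and 11.06 in wild type 1 to 4. The groups did not overlap. YAP5, the activator of CCC1 at high iron, rose by 0.48 ± 0.14 (adjusted p = 0.0416), which did not pass when blocked by replicate number (adjusted p = 0.0634). TIS11, also called CTH2, which promotes decay of mRNAs of iron-using proteins at low iron, was dim in both groups, at 8.54 ± 0.29 and 8.20 ± 0.35, and differed by 0.34 ± 0.20 without passing (adjusted p = 0.308).

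None of the 8 genes in the list named for Aft control and cytosolic iron sensing passed. In it 7 of 8 differences were negative, with a median of -0.32 against -0.08 for all genes. The negative ones include CAD1 (-0.16), a transcription factor gene that is not one of those that restrain or transport the Aft factors. GRX4 differed by -0.53 ± 0.16 (limma adjusted p = 0.0520), GRX3 by -0.36 ± 0.15 (adjusted p = 0.135) and BOL2 by -0.36 ± 0.15 (adjusted p = 0.135). GRX4 passed when blocked by day (adjusted p = 0.0061) or by replicate number (adjusted p = 0.0228). GRX3 passed by day (adjusted p = 0.0279) and not by replicate number (adjusted p = 0.0724).

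Of 19 measured genes in the list named for mitochondrial iron-sulfur cluster assembly and export, 8 fell, none rose and the median was -0.48. The 19 also held GGC1 and LEU1, which do not assemble or export clusters and fell the most. ISU1 and ISU2, with differences above 0, lay on the other side of 0 from the list median. So did ISA1 (0.44), ISA2 (0.14) and JAC1 (0.02) of the list. None of these genes above 0 passed without a block. GGC1, a mitochondrial guanine nucleotide carrier gene whose loss disturbs iron balance, fell by 1.35 ± 0.17 (limma adjusted p = 7.1e-04). LEU1, an iron-sulfur enzyme gene of leucine synthesis, fell by 1.09 ± 0.19 (adjusted p = 0.0035), and ACP1, the mitochondrial acyl carrier protein gene, fell by 0.97 ± 0.13 (adjusted p = 9.6e-04). NFS1, YAH1, MGE1, GRX5 and BOL3 fell as well. NFS1, the cysteine desulfurase that gives sulfur to the Isu scaffolds, fell by 0.72 ± 0.11 (adjusted p = 0.0018). A dimmer probe set of GRX5 differed by 0.37 ± 0.15 and did not pass.

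In cytosolic iron-sulfur protein assembly CFD1, a scaffold subunit gene, rose by 0.80 ± 0.13 (limma adjusted p = 0.0030), and the other 8 of 9 genes did not pass. The 1 of 9 called higher is near the 9.21% of all genes, and none fell, against 12.3% of all genes. In the zinc and oxygen list and in the heme list that follow, 1 of 9 rose and 2 of 9 fell. The share that fell in each is above 12.3%, but rests on 2 genes. Among 9 genes of zinc and oxygen regulation related to the control of FET4, the zinc transporter gene ZRT2 rose by 0.69 ± 0.20 (adjusted p = 0.0392), while TUP1, a general corepressor, and COX15, of heme a synthesis, fell by 0.73 ± 0.14 and 0.67 ± 0.16. The brightest probe set of ZRT1 differed by 0.18 ± 0.15 without passing (limma adjusted p = 0.493). Its dimmest probe set rose by 1.10 ± 0.21 (adjusted p = 0.0068), and its others did not pass. ZAP1 differed by -0.15 ± 0.14 (adjusted p = 0.531) and ROX1 by 0.56 ± 0.28 (adjusted p = 0.217, and 0.0247 and 0.0654 when blocked by day and by replicate number). Among 9 genes of heme synthesis and uptake HEM15, ferrochelatase, which inserts iron into heme, fell by 1.15 ± 0.16 (adjusted p = 0.0011) and HEM1 fell by 0.73 ± 0.18, while HEM4 rose by 0.51 ± 0.11 (adjusted p = 0.0116).

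**Figure D4:**
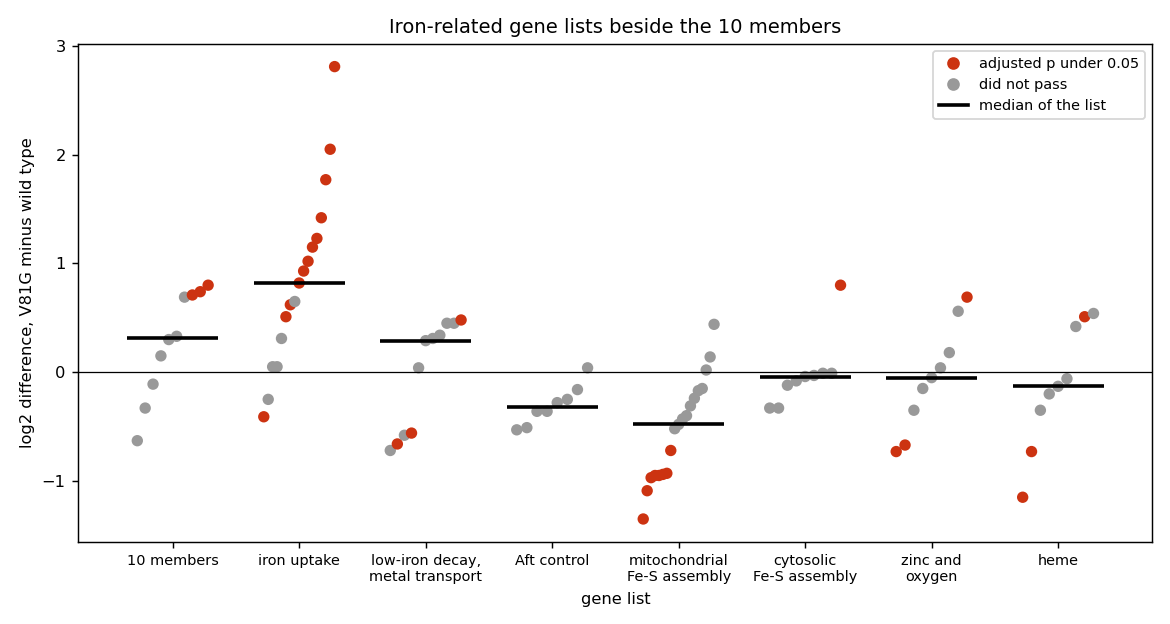
Log2 difference of V81G minus wild type (vertical axis) for each measured gene of 8 lists (horizontal axis), coloured by the test, with the list median as a bar. The median is 0.32 for the 10 genes, 0.82 for iron uptake and -0.48 for the mitochondrial iron-sulfur list, which includes GGC1 and LEU1.

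Along the chromosomes, the genes measured next to the 10 were mostly uncalled. Only the neighbours of FET4 passed, and they went opposite ways: ADH6, an alcohol dehydrogenase gene, differed by -0.74 ± 0.21 (limma adjusted p = 0.0396), and PAU19, a seripauperin gene on the side of the chromosome end, by 1.40 ± 0.17 (adjusted p = 5.4e-04). Profiles were also compared by the root-mean-square difference of log2 levels over the 8 arrays, relative to each gene's wild-type mean. The nearest genes were ESBP6 (0.098) and HAT2 (0.108) for FET4, SMU2 (0.119) and AST2 (0.141) for AFT1, and YNR077C (0.090) and MST27 (0.132) for AFT2. None of these 6 is in the iron lists above.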

How the data were processed

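The authors deposited probe-set intensity values on a linear scale for 8 Affymetrix yeast arrays, made with RMA, per the submitters' processing notes, with no version given. The extract protocols name hot phenol extraction and 6 µg of total RNA per sample. Intensities ran from 89.9 to 44207.1, with array medians between 1097.7 and 1188.6, and any scaling after RMA is not stated. Log2 was taken here. The 60 control probe sets were left out. Probe sets were named by the platform annotation, and symbols were brought up to date with RefSeq's R64 gene table, which matched all 6504 probe sets of a single gene. The brightest probe set stood for a gene. The group difference was fitted per probe set in R 4.3.3 with limma 3.58.1 (lmFit and eBayes with no other term, two-sided), tested on simulated data, and pairs of genes with scipy 1.17.1.

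Alternatives were the replicate number or hybridization day as a block, each day alone, 3 scalings, a filter on probe sets with a mean below 9.03, an intensity trend, the mean of a gene's probe sets, and each array left out. Day with fluidics station was added after seeing the data. Deviations of same-numbered arrays of the 2 groups correlated at 0.23 to 0.44, and those of other numbers hybridised on the same day at 0.22 to 0.34. These ranges do not set the number apart from the day. The numbers served as pairs only in the replicate block and the sign-flip test, while the main fit and the permutation test used the group alone. All 10 genes were named. The pairs, the 3 largest called rises and falls per list and the 2 nearest profiles of each called gene followed rules, and other genes were named after their values were seen. Genes and lists were chosen with earlier results of these data known. Of the list members BOL1 had no probe set of its own.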

Additional observations from a re-analysis of the deposited data

Results flagged for a closer look

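In 32 groups of 4 values (10 genes and 6 pairs in each of the 2 groups), 2 held an array far from the other 3 relative to the range of the 4. That share is near the 1 in 20 that chance gives. FTH1 read 10.74 in wild type 3, against 10.60 to 10.62 in the other wild-type arrays. SMF3 read 12.81 in wild type 1, against 12.47 to 12.51 in the others. Without a block, neither gene was called with or without these arrays; with all arrays and the day as a block FTH1 was called.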

How the results depend on the processing

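AFT2 kept its direction and call under 10 of 11 alternatives and AFT1 and FET4 likewise; the calls were lost on 1 day alone, day 2 for AFT2 (0.84, adjusted p = 0.0547) and FET4 (0.56, adjusted p = 0.0826) and day 1 for AFT1 (0.81, adjusted p = 0.171), where each group has 2 arrays. The count of called genes among the 10 was 3, and 5 with the replicate block, 6 with the day as a block, 6 with day and station as terms and 1 to 4 with 1 array left out; it was 1 without V81G 1, V81G 2 or wild type 3. ISU1 was also called on each day alone and after quantile normalization (0.81, adjusted p = 0.0326). HMX1 was -0.08 on day 2. The median of the 10 was 0.56 on day 1 and 0.22 to 0.43 with 1 array left out. Over all probe sets 1628 passed, 1858 with the replicate block and 2389 with the day as a block. The number was 3039 with day and station as terms and 1131 to 1555 with 1 array left out. Of the 82 other listed genes 30 passed, 47 with day and station, 18 on day 1 alone and 22 to 27 with 1 array left out. AFT1 minus AFT2 was 0.04 on day 1 and between -0.24 and 0.05 with 1 array left out, and the other pairs kept their sign. An exact sign-flip test over same-numbered arrays, added after seeing the data, gave these pairs p = 0.125, the smallest it allows, and AFT1 minus AFT2 0.750. Blocks and centring leave a pair's difference as it is, and the filter, the trend and the station terms were not run for pairs. The scalings put the median of all genes between -0.12 and -0.02. The causes of these changes were not tested.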
